A study of Mus musculus with 33 samples.

Results

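A set of 10 monocyte and macrophage genes was followed in bone marrow after venetoclax or ruxolitinib: Csf1r, Cx3cr1, Ccr2, Cd14, Cd68, Mrc1, Cd163, Marco, Msr1 and Siglec1. They were chosen by name, as the endogenous probes that carry these symbols, and are 10 of the 750 endogenous probes on the panel. All 10 were found and all 10 were tested. RNA of whole bone marrow from female C57BL/6 mice aged 6 to 8 weeks was counted on the NanoString nCounter, in which coloured barcodes bound to each RNA are counted without amplification, in 1 lane per mouse. The 33 mice formed 13 groups. For the mice labelled day 3 the header of their run reads Day 2, and the day of the labels is used here. Venetoclax, an inhibitor of the survival protein BCL2, was given by oral gavage 1 time a day for 2 days to 3 mice for each of days 1, 3 and 7 after treatment, and its vehicle of phosal, polyethylene glycol and ethanol to 2 mice for each of these days. Ruxolitinib, an inhibitor of the kinases JAK1 and JAK2, was given 2 times a day for 2 days to 3 mice a day, and its vehicle of DMSO and polyethylene glycol in water to 2 mice a day. The doses are deposited as 100 for venetoclax and 180 for ruxolitinib in mg/ml, while the methods give the same figures per kg of body weight. A further 3 mice were untreated. All groups were wild type and none received a transplant.

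Monocytes are made in the bone marrow from myeloid progenitors, leave it for the blood and can become macrophages in tissues. Resident macrophages also live in the marrow, where they clear dying cells, recycle the iron of red cells and hold stem cells in place. CSF1R is the receptor for the growth factors CSF1 and IL-34, on which these cells depend, and CCR2 and CX3CR1 are chemokine receptors of classical and patrolling monocytes. CD14 passes bacterial lipopolysaccharide to TLR4. CD68 is a glycoprotein of the lysosome membrane. MRC1 (CD206), CD163, MARCO, MSR1 and SIGLEC1 (CD169) are surface receptors of macrophages, for mannose, for haemoglobin bound to haptoglobin, for bacteria and modified lipoproteins in the case of both MARCO and MSR1, and for sialic acid.

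Counts were scaled to the housekeeping probes of their lane and are called normalised counts, and a count was taken as above background when it passed the mean of the 8 negative control probes in its lane by 2 SD. Csf1r, Ccr2 and Cd68 were above background in 33 of 33 lanes, Cx3cr1 in 32, Mrc1 in 31 and Cd163 in 30. Siglec1 was above background in 24 lanes, Cd14 and Msr1 in 23 each, and Marco in 6. Normalised counts of the last 4 genes therefore rest on few barcodes, with a median raw count of 10 for Siglec1, 6 for Cd14, 7 for Msr1 and 3 for Marco. The total of endogenous counts per lane ran from 18056 to 466096 with a median of 158944, and 2 lanes, venetoclax day 1 replicate 1 and ruxolitinib day 3 replicate 1, held under 30000. The leukocyte gene Ptprc was above background in 33 lanes and the granule gene Mpo in 33. Of the other marrow blood cell genes listed, Cd34 was in 31, Kit in 26 and Cd44 in 5. The endothelial gene Cdh5 was above background in 19 lanes and the endothelial receptor Tek in 3. The mice of each day were read in 1 run of 11 lanes with 1 untreated mouse in it, so the day after treatment and the run cannot be told apart, while each drug was compared with its vehicle inside a run. Where the untreated mice serve as control, they come from all runs, so that comparison is not inside a run. In bulk bone marrow, fewer cells of a type and less RNA per cell cannot be told apart.

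**Figure D1:**
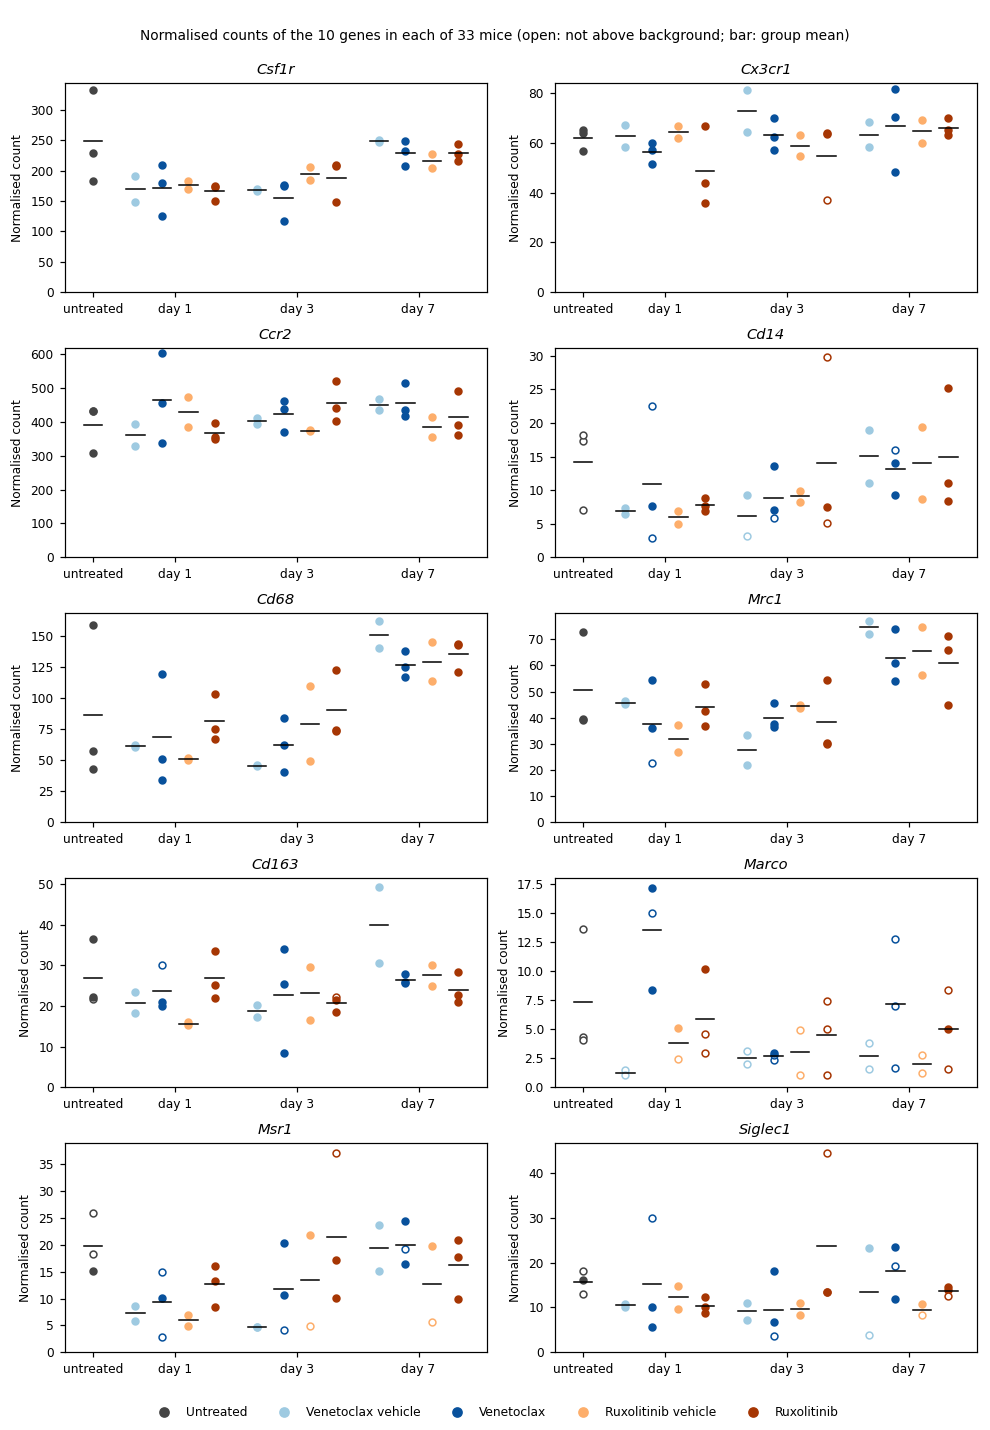
Normalised counts (vertical axis, from 0) of each of the 10 genes in each mouse, by day and treatment, with open points for counts not above the lane's background and a bar at each group's mean. The means of Cd68 and Mrc1 sit higher in all 4 groups of day 7 than in any group of days 1 and 3, and most points of Marco are open.

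Csf1r, the growth factor receptor, varied little with either drug. On day 1 its normalised counts were 149 and 191 in the mice given the venetoclax vehicle and 126, 179 and 209.9 with venetoclax. With the ruxolitinib vehicle they were 169.6 and 182, and with ruxolitinib 149, 173 and 175. The drug-treated mice overlapped their vehicle controls in both cases. On day 3 the counts were 167 and 170.0 against 117, 174 and 176 for venetoclax, and 184 and 205 against 149, 208 and 209 for ruxolitinib. On day 7 they were 247 and 250.3 against 208, 233 and 248, and 205 and 227 against 216, 228 and 244. All 10 treated or vehicle-treated mice of day 7 lay at or above 205. The log2 fold change against vehicle lay between -0.11 and 0.07 over the 6 drug and day comparisons, with standard errors of 0.22 to 0.24. The 95% confidence intervals reached from -0.57 to 0.53. The 3 untreated mice, at 183, 229 and 333, spread more widely than any treated group, and in the order of the 13 group means 1 of 12 neighbouring pairs differed by more than the larger SD of the 2 groups.

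Ccr2, which guides classical monocytes out of the marrow, had group means from 361 (venetoclax vehicle, day 1, SD 47.0, n = 2) to 465 (venetoclax, day 1, SD 133, n = 3). Its counts on day 1 were 327 and 394 with the venetoclax vehicle and 337, 455 and 602 with venetoclax. Those of ruxolitinib were 385 and 474 with vehicle against 349, 354 and 396 with the drug. The highest mouse, at 602, and the lowest of the venetoclax mice, at 337, differed by more than the drug and vehicle means did. On day 3 venetoclax gave 369, 438 and 462 against 392 and 412, and ruxolitinib 402, 441 and 521 against 372 and 376. Each of the ruxolitinib mice of day 3 lay above both vehicle controls, with a log2 fold change of 0.29 (standard error 0.22, edgeR adjusted p = 0.998). On day 7 the counts were 417, 435 and 514 against 434 and 467, and 361, 391 and 491 against 355 and 413. No neighbouring pair in the order of its 13 group means differed by more than the larger SD.

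Cx3cr1, the fractalkine receptor, was measured between 35.6 and 81.5 normalised counts in all 33 mice. With ruxolitinib on day 1 it was 35.6, 43.6 and 66.5 against 61.9 and 66.6 with vehicle. That was the lowest of the 13 group means (48.6, SD 16, n = 3), with a log2 fold change of -0.41 (standard error 0.23, edgeR adjusted p = 0.467), and the groups overlapped. Venetoclax on day 1 gave 51.6, 57.3 and 60.0 against 58.2 and 67.1. The remaining comparisons had log2 fold changes between -0.18 and 0.20. As for Ccr2, no neighbours in the order of group means were separated by more than the larger SD.

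Cd14, the lipopolysaccharide co-receptor, was close to background, with raw counts of 1 to 28. Its highest normalised counts with venetoclax on day 1 (22.5) and with ruxolitinib on day 3 (29.8) came from the 2 lanes under 30000 counts, where 3 and 4 barcodes were counted. Neither was above background. The group means ran from 5.95 (ruxolitinib vehicle, day 1, SD 1.41, n = 2) to 15 (venetoclax vehicle, day 7, SD 5.58, n = 2). The log2 fold changes with the drugs lay between -0.16 and 0.34, with standard errors of 0.49 to 0.70, and the confidence intervals reached from -1.36 to 1.63.

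Among the members with a promoter in the RefSeq table used here, Cd68, Mrc1 and Cd163 were higher on day 7 in vehicle-treated mice, and the bases before their transcription starts are shown beside those of Ccr2, which did not pass that test. The call of Cd163 was lost under 4 of 12 alternative ways of processing. The sequences are the 250 bases upstream of each RefSeq gene start, 5′ to 3′ on the gene's strand, in build GRCm38.p6. Cd68 is at chr11:69666171-69666420 on the minus strand, Mrc1 at chr2:14229164-14229413 on the plus strand, Cd163 at chr6:124304401-124304650 on the plus strand and Ccr2 at chr9:124101933-124102182 on the plus strand. Capitals mark GAGGAA or its reverse complement TTCCTC, the core letters of sites for PU.1, a transcription factor of the myeloid lineage.
Cd68: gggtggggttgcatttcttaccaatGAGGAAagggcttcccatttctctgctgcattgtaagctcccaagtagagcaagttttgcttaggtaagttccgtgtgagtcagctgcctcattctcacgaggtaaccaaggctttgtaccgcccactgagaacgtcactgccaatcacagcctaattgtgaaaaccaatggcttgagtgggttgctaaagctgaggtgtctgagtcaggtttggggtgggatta
Mrc1: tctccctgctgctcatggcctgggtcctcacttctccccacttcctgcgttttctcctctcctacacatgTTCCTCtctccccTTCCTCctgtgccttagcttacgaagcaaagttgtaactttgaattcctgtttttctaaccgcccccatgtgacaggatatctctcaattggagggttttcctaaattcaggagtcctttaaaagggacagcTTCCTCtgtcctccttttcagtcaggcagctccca
Cd163: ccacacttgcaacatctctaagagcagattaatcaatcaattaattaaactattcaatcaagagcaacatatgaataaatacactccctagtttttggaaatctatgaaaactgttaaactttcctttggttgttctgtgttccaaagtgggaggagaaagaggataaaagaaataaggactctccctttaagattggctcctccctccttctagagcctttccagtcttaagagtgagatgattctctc
Ccr2: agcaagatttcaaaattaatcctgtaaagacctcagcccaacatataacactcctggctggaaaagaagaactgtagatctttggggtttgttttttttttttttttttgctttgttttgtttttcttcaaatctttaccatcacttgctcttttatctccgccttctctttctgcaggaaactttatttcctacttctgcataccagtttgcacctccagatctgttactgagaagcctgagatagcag
The letters, searched on both strands, occur 1 time before Cd68, 3 times before Mrc1, 0 times before Cd163 and 0 times before Ccr2. Of the other members in the table, Marco has them 1 time and Cx3cr1 0 times, and neither passed that test. Of the 32851 promoter windows in the RefSeq table, 23.3% hold them at least 1 time in the same 250 bases. Promoter windows of 6 members were in that table, and all 6 were searched. A match of letters is a description of the sequence and not a measured binding site.

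Cd68, the lysosomal glycoprotein, was 60.3 and 62.7 in the mice given the venetoclax vehicle on day 1 and 34.4, 51.4 and 120.0 with venetoclax. The highest of these is the lane with the fewest counts of all, where 16 barcodes of Cd68 were read. With ruxolitinib on day 1 it was 67.0, 75.4 and 103 against 50.0 and 52.0 with vehicle. All 3 ruxolitinib mice lay above both controls, but the log2 fold change of 0.69 (standard error 0.36, 95% confidence interval -0.04 to 1.42) did not pass the edgeR test (adjusted p = 0.421). When the model held the 2 groups of that comparison alone, the value was 0.69 with an edgeR adjusted p of 0.0308. There 77 of all 655 genes were called. In the model of all groups the call was not made with the untreated mice as control either. On day 3 venetoclax gave 40.4, 62.4 and 83.7 against 45.2 and 45.8, and ruxolitinib 73.7, 74.4 and 123 against 49.7 and 109.6. On day 7 the counts were 117, 125 and 138 against 140.5 and 162 for venetoclax, below both controls, and 121, 143 and 144 against 114 and 145 for ruxolitinib. The difference with venetoclax on day 7 was -0.26 on the log2 scale (standard error 0.35, adjusted p = 0.999).

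Mrc1, the mannose receptor, was 45.2 and 46.3 with the venetoclax vehicle on day 1 and 22.5, 36.2 and 54.5 with venetoclax. Ruxolitinib gave 37.0, 42.4 and 52.8 against 26.8 and 37.1, a log2 fold change of 0.51 (standard error 0.28, edgeR adjusted p = 0.460). The groups overlapped in both comparisons. On day 3 all 3 venetoclax mice (36.5, 37.6 and 45.8) exceeded both controls (21.8 and 33.2), a difference of 0.48 on the log2 scale with a standard error of 0.31 (edgeR adjusted p = 0.611). Ruxolitinib on day 3 gave 29.8, 30.2 and 54.6 against 43.9 and 44.7. The 29.8, and the 22.5 with venetoclax on day 1, were 4 and 3 barcodes in the lanes under 30000 counts. Neither was above background. On day 7 venetoclax gave 54.0, 60.8 and 73.7 against 72.1 and 77.1, and ruxolitinib 44.9, 65.9 and 71.4 against 56.1 and 74.8. Mice of all 4 groups on day 7 were thus in a range above most mice of the earlier days.

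Cd163, the haemoglobin scavenger receptor, had its lowest group mean with the ruxolitinib vehicle on day 1, at 15.3 and 16.1 in the 2 mice. The ruxolitinib mice of that day had 22.1, 25.1 and 33.6, all higher than the vehicle controls. The log2 fold change was 0.79 (standard error 0.32, 95% confidence interval 0.13 to 1.45), with an unadjusted p of 0.0201 and an adjusted p of 0.279 in the edgeR test over 655 genes. Against the untreated mice as control, 1 from each run, the same value was 0.12, and that comparison is not inside a run. Venetoclax on day 7 gave 25.6, 25.8 and 27.9 against 30.6 and 49.4, all below their controls, a difference of -0.38 on the log2 scale with a standard error of 0.34 (edgeR adjusted p = 0.999). In the remaining 4 comparisons the drug-treated mice overlapped their vehicle.

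Marco, a scavenger receptor for bacteria, was above background in few lanes. On day 1 the raw counts were 2, 10 and 6 in the 3 venetoclax lanes and 1 and 1 in those of its vehicle, and the lowest count in any lane of the series is 1. Counts of 10 and 6 were above background, whereas the count of 2 and both vehicle counts were not. The normalised counts were 15, 8.42 and 17.2 against 1.46 and 1.08. Set against a group not above background, the fitted log2 fold change is no measured size. It was 3.13 (standard error 0.99, 95% confidence interval 1.11 to 5.15), with an unadjusted p of 0.00348 and an adjusted p of 0.0999 in the edgeR test. The ratio of the summed counts, 18 against 2 after scaling, was 8.70 with an exact 95% counting interval of 2.08 to 77.3. This interval covers counting error only. With neither vehicle count above background, the ratio is no measured size either. The adjusted p was 0.0475 when the model held the 2 groups alone, where 19 of all 655 genes were called. In the model of all groups, the log2 fold change was 2.30 with both vehicles of the day as control (edgeR adjusted p = 0.0736). With the untreated mice of all runs as control it was 0.98 (adjusted p = 0.561). The adjusted p ran from 0.0475 to 0.561 over the alternatives. Untreated mice had raw counts of 1, 4 and 3, none above background. The remaining log2 fold changes of Marco lay between -0.07 and 1.19 with standard errors of up to 0.98.

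Msr1, the class A scavenger receptor, was 4.65 and 4.68 normalised counts in the mice given the venetoclax vehicle on day 3, or 7 and 3 barcodes, of which the 3 were not above background. With venetoclax it was 4.18, 10.6 and 20.4, which overlapped the controls. The log2 fold change was 1.39 (standard error 0.63, 95% confidence interval 0.12 to 2.67, unadjusted p = 0.0335, edgeR adjusted p = 0.410). Without replicate 3 of the venetoclax mice it was 0.69, with both vehicles of the day as control 0.58, and with the untreated mice, at 15.1, 18.2 and 25.95, as control -0.52. Of the untreated values the 15.1 alone was above background. With ruxolitinib on day 1 Msr1 was 8.48, 13.3 and 16.1 against 4.95 and 6.94, all above vehicle, and the log2 difference was 1.00 with a standard error of 0.52 (edgeR adjusted p = 0.421).

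Siglec1, the sialic acid receptor of marrow and lymph node macrophages, is also induced by interferon. The mice given ruxolitinib on day 7 had 12.6, 13.9 and 14.7 normalised counts, above both vehicle controls at 8.31 and 10.7, and those of day 3 had 13.4, 13.4 and 44.6 against 8.28 and 10.96. On day 7 the 12.6 and the 8.31 were 3 barcodes each and not above background. The value of 44.6 was 6 barcodes in a lane under 30000 counts and not above background. The log2 fold change on day 7 was 0.46 (standard error 0.47, edgeR adjusted p = 0.999) and that on day 3 was 0.70 (standard error 0.55, adjusted p = 0.998). On day 1 ruxolitinib gave 8.87, 10.2 and 12.2 against 9.72 and 14.9. Over the 3 days the mean log2 fold change with ruxolitinib was 0.34 (standard error 0.29, adjusted p = 0.656).

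Against vehicle, then, 0 of 10 members passed the edgeR quasi-likelihood test at an adjusted p of 0.05 for either drug on any day. Of the 60 pairs of member and comparison, 3 had an unadjusted p under 0.05: Marco with venetoclax on day 1, Msr1 with venetoclax on day 3 and Cd163 with ruxolitinib on day 1. Limma also called 0 members, and DESeq2 called 0 of those it gave an adjusted p, which for venetoclax on day 1 were 5 of the 10, without Marco. Over all 655 genes tested, 0.153% were called with venetoclax on the first of the days, 0% on day 3 and 0.153% on the last, and 2.75%, 0.153% and 0.153% with ruxolitinib. The median log2 fold change of the 10 members was 0.08, 0.26 and -0.13 for venetoclax on days 1, 3 and 7, where the median of all genes was -0.02, 0.06 and -0.01. For ruxolitinib the members' medians were 0.38, 0.02 and 0.05, and those of all genes were 0.13 (0.25 when lanes were scaled by total count), 0.02 and 0.02. For the 6 members above background in at least 30 lanes, no confidence interval reached below -1.07 or above 1.45, while those of the other 4 reached from -2.07 to 5.15. The design compared 3 mice with 2, and since nothing in the labels gives litters or cages, the p-values measure the spread between these mice.

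**Figure D2:**
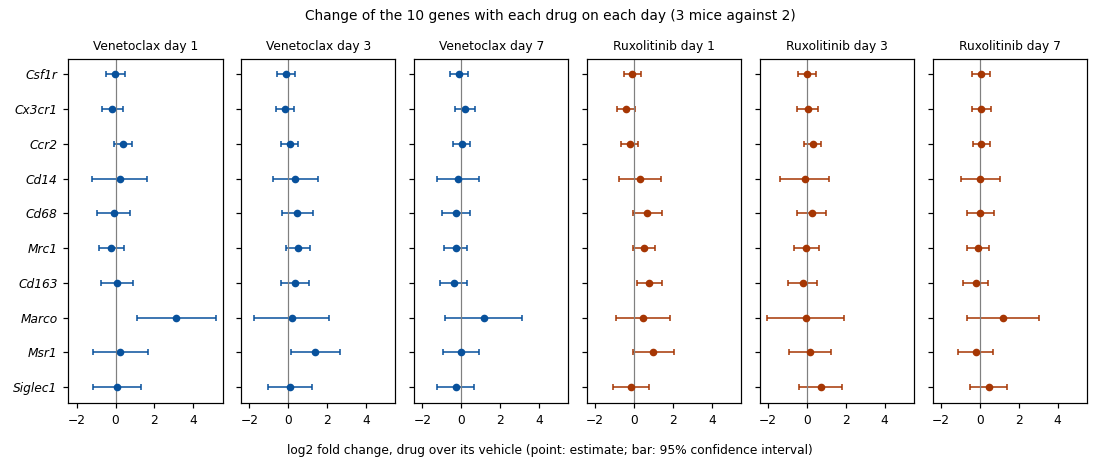
Log2 fold change (horizontal axis) of each member, drug over its vehicle, for each drug and day, with the estimate as a point and its 95% confidence interval as a bar. Of the 60 intervals, those of Marco and Msr1 with venetoclax, on days 1 and 3, and of Cd163 with ruxolitinib on day 1 exclude 0 before adjustment, and none passed after it.

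A simpler description counts members that did not overlap, with the 3 drug-treated mice all above or all below both controls. Marco on day 1 and Mrc1 on day 3 were the 1 such member with venetoclax, both higher, and Cd68 and Cd163 were the 2 of day 7, both lower. Over all 655 genes the share was 27.5%, 26.1% and 17.3%. Those of ruxolitinib, all higher, were the 3 genes Cd68, Cd163 and Msr1 on day 1, the 2 genes Ccr2 and Siglec1 on day 3 and Siglec1 alone on day 7, and over all genes the share was 44%, 15.6% and 17.7%. The share of the 10 members was thus below that of all genes in 4 of the 6 comparisons, and in the other two, at 2 of 10, it was close to it.

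Averaged over the 3 days, 0 of 10 members passed for venetoclax, where 2.9% of all genes did, and 0 of 10 for ruxolitinib, where 1.22% did. The fitted mean for Marco with venetoclax was 1.49 on the log2 scale (standard error 0.58, edgeR adjusted p = 0.267), but none of the 6 venetoclax vehicle lanes, with 1 to 3 barcodes each, was above background for Marco, so this is not a measured fold. Averaging narrowed the intervals of the well-measured members. Csf1r had a 95% confidence interval of -0.35 to 0.20 with venetoclax and -0.27 to 0.26 with ruxolitinib. Ccr2 had -0.09 to 0.42 and -0.21 to 0.30, and Cd68 had -0.41 to 0.48 and -0.10 to 0.74.

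The change with venetoclax was also set against the change with ruxolitinib, each relative to its own vehicle and within a run. No member passed on day 1, when 1.68% of all genes did, nor on day 3 (0.153%) or day 7 (0.305%). On day 1 Ccr2 differed by 0.62 on the log2 scale, higher with venetoclax (standard error 0.31, 95% confidence interval -0.00 to 1.25, edgeR adjusted p = 0.371). No size is given for Marco, which was not above background in either venetoclax vehicle lane of that day. Cd68, Mrc1 and Cd163 had differences of -0.79, -0.72 and -0.71, lower with venetoclax, with standard errors of 0.55, 0.43 and 0.52 and adjusted p-values of 0.533, 0.485 and 0.559.

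Vehicle-treated mice were compared with the 3 untreated mice to see what the gavage and carrier alone went with. No member passed, and 0% of all genes did. For Csf1r the log2 difference of vehicle over untreated was -0.32 (standard error 0.17, unadjusted p = 0.0708, edgeR adjusted p = 0.478). Within the runs, where 4 vehicle-treated mice stood against 1 untreated mouse, it was -0.40, -0.01 and -0.52. Msr1 was lower by 0.80 in the fit (standard error 0.44, adjusted p = 0.511), and by 1.83, 0.68 and 0.17 within the runs, on the scale of log2(normalised count + 1). The untreated values of the first and last of these runs, 6 and 4 barcodes, were not above background, so these 2 differences are not measured on both sides. The untreated lanes of the runs of days 1 and 7 held 47977 and 37003 counts. The median of all genes was -0.14 here, and its sign turned with the scaling, from -0.30 with all 20 housekeeping probes to 0.05 with TMM. It was 0.28 with limma after background subtraction, which changes the test and the background and not the scaling alone.

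Differences that passed the test were found between day 7 and the earlier days, in vehicle-treated and drug-treated mice. This comparison was added after the values were seen. All mice of day 7 were read in 1 run and those of days 1 and 3 in 2 others. The p-values here measure the spread between mice and not that between runs. In vehicle-treated mice Cd68 was 140 ± 20.1 normalised counts on day 7 (SD, n = 4) and 59.4 ± 21.2 on days 1 and 3 (n = 8), and the lowest mouse of day 7 (114) lay above the highest of the earlier days (109.6). The log2 fold change was 1.29 (standard error 0.23, edgeR adjusted p = 8.95e-05), or 2.44-fold. Mrc1 was 70.0 ± 9.50 against 37.4 ± 9.31, again without overlap (log2 fold change 0.90, standard error 0.19, adjusted p = 3.52e-04). Msr1 rose by 1.32 (standard error 0.34, adjusted p = 0.00252), Cd163 by 0.71 (standard error 0.22, adjusted p = 0.0116) and Csf1r by 0.39 (standard error 0.15, adjusted p = 0.0392). The call of Csf1r was lost under 5 of 12 alternatives and in 10 of 12 fits without 1 mouse. Its log2 fold change was 0.21 to 0.64 over the alternatives and 0.35 to 0.44 over those fits. The call of Cd163 was lost under 4 of 12 alternatives and in 1 of those fits. That of Msr1 was lost under 2 of 12 alternatives and in 2 of those fits. In all, 5 of 10 members were higher and 0 lower, where 36.6% of all genes were called in either direction. The median log2 fold change was 0.58 for the members and 0.14 for all genes, and the latter was 0.38 when lanes were scaled by total count and -0.01 by TMM. The number of members called was 3 with all 20 housekeeping probes, with DESeq2 or with limma, and 1, Cd68, with limma after background subtraction, where 97 of all 655 genes were called against 240 here. Without 1 mouse of the venetoclax vehicle on day 7 (replicate 1) the number was 3, and without 1 of the ruxolitinib vehicle (replicate 1) it was 2, of which Cd68 and Mrc1 were called each time. The value of Msr1 was 0.54 without the latter mouse, whose partner held 2 barcodes of Msr1.

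Ccr2 did not pass in this comparison of vehicle-treated mice, with 417 ± 47.2 against 392 ± 41.3 normalised counts (log2 fold change 0.09, 95% confidence interval -0.21 to 0.39, edgeR adjusted p = 0.668). Whether its change differs from those of the members called was not tested. Cx3cr1 was 63.9 ± 5.74 against 64.6 ± 7.83 (-0.04, 95% confidence interval -0.38 to 0.29, adjusted p = 0.891). Cd14 (0.69, standard error 0.36), Siglec1 (0.47, standard error 0.33) and Marco (-0.48, standard error 0.70) did not pass. In the drug-treated mice, 6 of day 7 against 12 of days 1 and 3, Cd68 rose by 0.85 (standard error 0.20, adjusted p = 9.72e-04), Mrc1 by 0.52 (standard error 0.16, adjusted p = 0.00985) and Csf1r by 0.43 (standard error 0.13, adjusted p = 0.00816). That is 3 of 10 members, where 32.8% of all genes were called. Cd163 (0.17, standard error 0.19) and Msr1 (0.50, standard error 0.28) did not pass there, and whether they differ from vehicle-treated mice in this was not tested. By TMM or by all 20 housekeeping probes, Cd68 was the 1 member still called in drug-treated mice. The call of Mrc1 there was lost under 4 of 12 alternatives and in 1 of 18 fits without 1 mouse. Over the alternatives its log2 fold change was 0.37 to 0.87. The call of Csf1r there was lost under 2 of 12 alternatives.

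**Figure D3:**
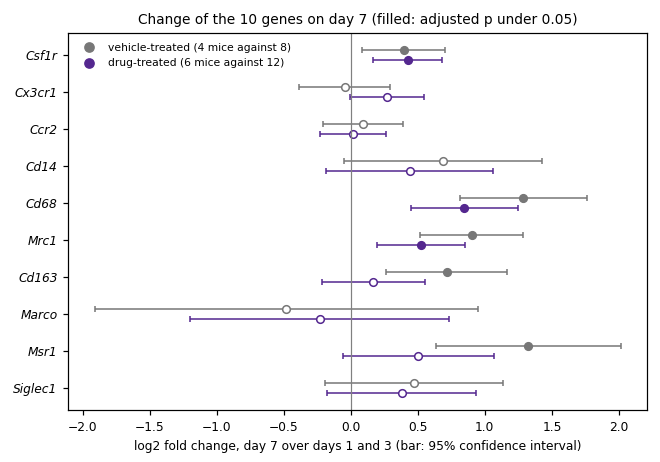
Log2 fold change (horizontal axis) of each member on day 7 over days 1 and 3, in vehicle-treated and in drug-treated mice, with the 95% confidence interval as a bar and filled points where the adjusted p was under 0.05. Cd68, Mrc1 and Csf1r are filled in both, Cd163 and Msr1 in vehicle-treated mice, and the points of Ccr2 lie near 0.

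The untreated mice have no day, but 1 was read in each run. Cd68 was 43.3 and 57.6 in those of the runs of days 1 and 3 and 159 in that of the run of day 7. Mrc1 was 38.9, 39.4 and 72.9, and Csf1r was 229, 183 and 333. In each case the untreated mouse of the third run was the highest of the 3, on raw counts of 35, 16 and 73. Of the 11 lanes of the third run, 8 had more Cd68 than every lane of the other runs, 9 had more Mrc1, 6 more Csf1r, 2 more Cd163, 1 more Cx3cr1, and 0 more Ccr2, Msr1, Cd14, Marco or Siglec1. The untreated mouse of the third run had 36.5 of Cd163 against 21.6 and 22.2, of which the 21.6 was 5 barcodes and not above background. Its Msr1, at 18.2, was below the 25.95 of the first run, and both of these Msr1 counts were not above background. The part of the run in the difference between days was not tested.

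A ratio of 2 genes within a lane does not depend on how the lane is scaled, so 6 members (Cd68, Mrc1, Csf1r, Cd163, Msr1 and Cx3cr1) were also set against Ccr2. Both they and Ccr2 were chosen for this after their values were seen. The median log2 ratio of raw counts, Cd68 over Ccr2, was -2.65 in the run of day 1, -2.82 in that of day 3 and -1.69 in that of day 7. For Mrc1 over Ccr2 it was -3.24, -3.46 and -2.69, for Csf1r over Ccr2 -1.18, -1.30 and -0.87, and for Cx3cr1 over Ccr2 -2.64, -2.78 and -2.76. For Cd163 over Ccr2 it was -4.08, -4.34 and -3.83, and for Msr1 over Ccr2 -5.38, -5.37 and -4.55. In the third run 7 of 11 lanes exceeded all lanes of the other runs for Mrc1, 3 for Cd68, 1 each for Csf1r and Cd163, and 0 for Msr1 and Cx3cr1. Since the genes were chosen by their values, these ratios restate the pattern of the normalised counts without the scaling and are no further evidence for it, and where a ratio differs between runs it does not show which of the 2 genes changed.

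**Figure D4:**
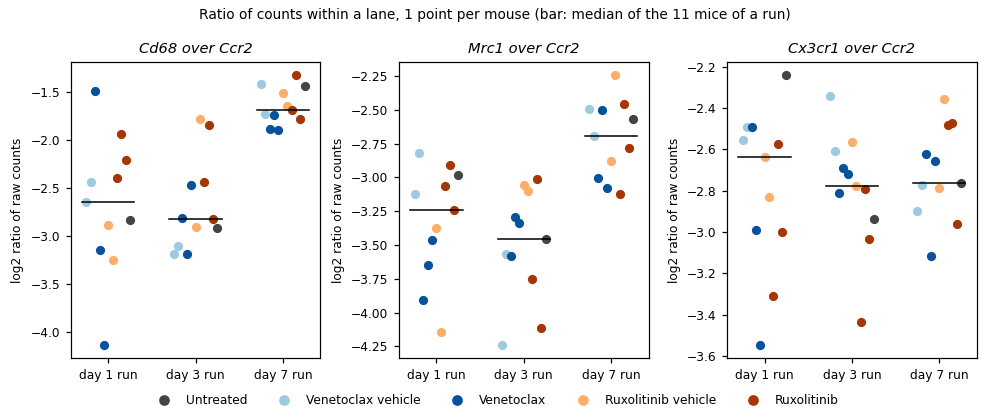
Log2 ratio of raw counts within a lane (vertical axis) of Cd68, Mrc1 and Cx3cr1 over Ccr2, 1 point per mouse in the runs that held days 1, 3 and 7, with a bar at the median of 11 mice. The medians of Cd68 are -2.65, -2.82 and -1.69, and those of Cx3cr1 are -2.64, -2.78 and -2.76.

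Other genes of these cells were read beside the members. Of 56 listed monocyte and macrophage genes, 41 were on the panel and 40 were tested. None passed with either drug on any day, nor did any in the mean over days. The median log2 fold change of the 40 was -0.26, 0.38 and 0.04 with venetoclax on days 1, 3 and 7, and 0.35, 0.20 and 0.09 with ruxolitinib. On day 1 with ruxolitinib 37 of the 40 had estimates above 0, where the median of all genes was 0.13 (0.25 when scaled by total count). With ruxolitinib on days 3 and 7 the number above 0 was 27 and 25. With venetoclax it was 10, 32 and 25 on days 1, 3 and 7. The difference between the drugs on day 1 passed for Thbs1, thrombospondin-1, which was 1.95 lower on the log2 scale with venetoclax (standard error 0.51, adjusted p = 0.0385). That is 1 of the 40, beside 1.68% of all genes. On day 7 against days 1 and 3, 19 of the 40 were higher and 1 lower in vehicle-treated mice, and 22 higher and 1 lower in drug-treated mice, beside 36.6% and 32.8% of all genes called in either direction. In vehicle-treated mice the complement genes C1qb (117 ± 9.38 against 38.8 ± 16.4 normalised counts, n = 4 and 8) and C1qa (83.2 ± 14.9 against 28.7 ± 12.48), products of macrophages, were among those that rose most, by 1.60 and 1.51 on the log2 scale. Clec4a2, a lectin receptor of myeloid cells, rose there by 1.58, Chil3, a chitinase-like protein of monocytes and neutrophil precursors, by 1.44 and Ctss, the lysosomal protease cathepsin S, by 1.43. In drug-treated mice the largest changes were those of Cybb (1.31), Ctss (1.29), Clec7a (1.26), Chil3 (1.22) and Clec4a2 (1.21).

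Among 14 listed ligands and partners of the members, all were on the panel and 10 were tested. The ligands Il34, Csf2, Cx3cl1 and Ccl12 were not above background in enough lanes to be tested. None of the 10 passed with either drug. On day 7 against days 1 and 3, 2 of the 10 were higher and 2 lower in vehicle-treated mice and 3 higher and 1 lower in drug-treated mice, near the 36.6% and 32.8% of all genes called. Lbp, which delivers lipopolysaccharide to CD14, rose by 1.28 (standard error 0.31) in vehicle-treated mice and by 0.90 in drug-treated mice (standard error 0.26), and Tlr4 by 1.17 and 0.71. Ly96, which encodes the TLR4 partner MD-2, rose by 0.48 in drug-treated mice. Csf2rb, the common beta receptor chain for GM-CSF, fell by 0.49 and 0.81. Ccl3, a chemokine of myeloid cells, fell by 0.69 in vehicle-treated mice.

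Interferon-inducible genes served as a second companion list because Siglec1 is one, and because ruxolitinib blocks signalling downstream of the interferon receptors. Of 23 listed, 21 were tested. With ruxolitinib on day 1, 10 of the 21 were lower and 0 higher, with a median of -1.26, beside 2.75% of all genes called. Ifit3, an antiviral protein, had 10.2 ± 1.81 normalised counts with ruxolitinib (n = 3) against 71.3 ± 9.79 with vehicle (n = 2), which is -2.81 as a log2 fold change (standard error 0.39, edgeR adjusted p = 2.05e-05). Isg15 changed by -2.47 and the RNA sensor Oas2 by -2.10. The mean of Isg15 with ruxolitinib, 4.18 ± 1.20 normalised counts, was near the background of its lanes, so its fold is no exact size. Siglec1 changed by -0.14 in the same comparison (standard error 0.46, 95% confidence interval -1.08 to 0.79). With venetoclax on day 1, 0 of the 21 passed. Averaged over the days, Bst2 was lower with venetoclax (-0.51, edgeR adjusted p = 0.0320) and Oas2 with ruxolitinib (-0.81, adjusted p = 0.0139). That is 1 of the 21 each, beside 2.9% and 1.22% of all genes. On day 7 against days 1 and 3, 5 of the 21 were higher and 5 lower in vehicle-treated mice. In drug-treated mice 9 were higher and 0 lower, beside 36.6% and 32.8% of all genes called. The drug-treated mice of days 1 and 3 include those given ruxolitinib on day 1, where 10 of the 21 were lower than with vehicle. The part of those mice in the 9 was not tested.

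Genes of other cell types also differed on day 7 against days 1 and 3. In vehicle-treated mice 5 of 7 neutrophil genes tested were higher and 2 lower (median 1.10), and the same numbers held in drug-treated mice (median 0.85). Their summed level was 66496 to 101266 normalised counts in the third run, against 74160 to 163701 and 88177 to 153153 in the others. This sum follows the most abundant genes and need not go with the number of genes higher. Mpo and Elane, 2 of these genes, had medians of 2141 and 330 normalised counts. Of 6 B cell genes 2 were higher and 2 lower in vehicle-treated mice, of 5 T cell genes 1 was higher, of 5 NK cell genes 1 was higher, of 3 dendritic cell genes 1 was higher and of 3 megakaryocyte genes 1 was lower. None of 4 endothelial genes passed. Of all genes, 36.6% were called in vehicle-treated and 32.8% in drug-treated mice, so the shares of several of these short lists lie near or below that of all genes. The summed B cell level was 509 to 835 in the first run, 334 to 912 in the second and 302 to 1029 in the third. The part of these cell types in the members' difference was not tested.

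Over the 33 mice, the genes whose log2 counts were most like each member's were found among 390 genes with a mean of at least 20 normalised counts. These correlations share lanes, runs and scaling and are given as a description. Cd68 was closest to C1qb (Pearson r = 0.96) and Ly86 (0.93), a partner of the receptor RP105 on myeloid and B cells. Mrc1 was closest to Cfp (0.83), which encodes properdin, and Yy1 (0.82). Csf1r was closest to Apoe (0.73), apolipoprotein E, and Emr1 (0.73), which encodes the macrophage antigen F4/80. Cd163 was closest to Inpp5d (0.77), which encodes the phosphatase SHIP, and C1qa (0.70), and Ccr2 to Lgals3 (0.60), galectin 3, and the complement gene C3 (0.58). The highest r were 0.71 (Runx1) and 0.69 (Lbp) for Msr1, 0.68 (Runx1) and 0.68 (Herc6) for Cd14, 0.54 (Ifi27) and 0.50 (Irf1) for Cx3cr1, and 0.42 (Zbp1) and 0.41 (Slc11a1) for Siglec1. Among the members themselves the highest were Csf1r with Cd68 (0.74), Cd68 with Cd163 (0.68), Cd68 with Msr1 (0.65) and Cd68 with Mrc1 (0.63), whereas Cx3cr1 ran at -0.25 with Siglec1 and -0.33 with Marco.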

How the data were processed

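Bone marrow RNA of 33 mice was hybridised to an nCounter panel, 1 lane per mouse. The deposited values are raw barcode counts per probe, exported by the authors without normalisation. The authors' own normalisation with nCounter Advanced Analysis is not in them, and no quality filter was applied here. The methods name the PanCancer Immune Profiling Panel and the series' design text an immunology panel.

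Groups came from the sample labels. To scale a lane, the geometric mean of 11 housekeeping probes (of 20, those above background everywhere) was used. Background was set per lane at 2 SD over the mean of its 8 negative control probes (1.83 to 7.85 counts). Of 750 genes, 655 passed this level in 2 or more lanes and entered 1 model of 13 group means with edgeR 4.0.16 (R 4.3.3), by the quasi-likelihood test with Benjamini-Hochberg adjustment over all of them. Standard errors were taken from the F statistic for most estimates, and confidence intervals use 33.1 degrees of freedom. For a few small estimates, such as Mrc1 with ruxolitinib on day 7, the standard error does not correspond to the p-value. The coefficient of biological variation was 20.2%. Python 3.11.15 made the summaries. On simulated counts of 655 genes with 200 changed in 1 drug group, 61% of 2-fold and 89% of 4-fold changes were recovered, and 95.5% of the calls were true. The changed group was that of ruxolitinib on day 1, with lanes of 199953 to 256839 counts. In the data at most 18 genes were called with a drug on any day. These rates therefore do not carry over to groups with a lane under 30000 counts or to few changed genes.

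All 10 members are named, and for the companion lists up to 5 genes per comparison with an adjusted p under 0.05, by size of change. For likeness, the 2 genes with the highest r were named for each member above background in at least 17 lanes. Members and lists were chosen with earlier results of these data known. The alternatives were TMM, total count and 20-probe scaling, DESeq2 1.42.0, limma 3.58.1, other filters, a replicate block, other controls and leaving out mice. Replicate numbers are shared between groups, but the mice are different animals. Deviations of same-numbered mice from their group means correlated at -0.34 to 0.47, with 3 of 12 correlations over 0.1. No 2 lanes were identical.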

Additional observations from a re-analysis of the deposited data

How the results depend on the processing

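In the 12 comparisons planned for the drugs and vehicles, the number of members called was 0 under every alternative run, those leaving out each mouse included, with 2 exceptions. In a model of the compared groups alone it was 1 for venetoclax on day 1 (Marco, log2 fold change 3.03, adjusted p = 0.0475) and 1 for ruxolitinib on day 1 (Cd68, 0.69, adjusted p = 0.0308), where 19 and 77 of all 655 genes were called against 1 and 18 in the model of all groups. Both values rest on 3 mice against 2 with the spread estimated from them. DESeq2 gave no adjusted p to some members (5 of 10 had one for venetoclax on day 1, 9 and 6 for the means over days of venetoclax and ruxolitinib, and 8 for venetoclax against ruxolitinib on day 1, each time without Marco), and the filter on the mean raw count left 8 of 10, so under these the count of 0 covers those alone. With untreated mice as control, 1 from each run, the log2 fold change of Msr1 with venetoclax on day 3 turned to -0.52. That of Marco over the days turned to -0.17. The cause of either was not tested. For day 7 against days 1 and 3, an added comparison whose alternatives were all chosen after seeing the data, 5 members and 240 of all 655 genes were called in vehicle-treated mice. The number of members was 3 with all 20 housekeeping probes (227 of all genes), 3 with DESeq2 (206 of 528), 3 with limma on log2(normalised count + 1) (172) and 1 with limma after background subtraction (97), and 2 to 5 when each mouse was left out. In drug-treated mice it was 3 (215 of all genes), and 1 with TMM scaling (200), 5 with total count scaling (228), 1 with all 20 housekeeping probes (220), and 2 to 4 when each mouse was left out. Cd68 was called under all 12 alternatives in both and without any 1 mouse. The call of Csf1r was lost in vehicle-treated mice under 5 of 12 alternatives and in 10 of 12 fits without 1 mouse. Its log2 fold change was 0.21 to 0.64 over the alternatives and 0.35 to 0.44 over those fits. The calls of Cd163 and Msr1 there were lost under 4 and 2 of 12 alternatives. Among lanes of at least 100000 counts 4 members were called in vehicle-treated and 3 in drug-treated mice. With the replicate block, which pairs mice by number, 5 and 3 members were called on day 7 and 0 in the planned comparisons, so the block changed no count. Marco, Cd14, Msr1 and Siglec1 were above background in 6, 23, 23 and 24 of 33 lanes, and their intervals allow changes of several fold. The part of depth in this was not tested, and the lane with the most counts (466096) held 4 barcodes of Marco, not above background.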
